A study of Saccharomyces cerevisiae CEN.PK113-7D with 6 samples.

Results

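De novo purine synthesis was followed through 10 genes of the budding yeast Saccharomyces cerevisiae: ADE1, ADE2, ADE3, ADE4, ADE6, ADE8, ADE12, ADE13, ADE16 and ADE17. They were chosen by their place in the pathway, with earlier results of these data known. All 10 were among the 5449 genes with a probe set on the array. Each was read by 1 probe set, so no choice between probe sets was needed, and ADE5,7, which encodes a further enzyme of the pathway, was not analysed here. The haploid laboratory strain CEN.PK113-7D was grown on glucose, either in batch, where no fresh medium is added, or in a chemostat, where medium is fed and drained continuously. There were 6 single-channel GeneChip arrays with biotin-labelled total RNA, 3 for batch (numbered 1, 2 and 3) and 3 for chemostat (numbered 4, 8 and 9). No gene was altered and no agent was added in either group, per the labels. The labels say that biomass was taken at steady state. They give neither the dilution rate and limiting nutrient of the chemostats nor the growth phase of the batch cultures, and do not say whether the medium held adenine.

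The pathway builds a purine ring on phosphoribosyl pyrophosphate (PRPP), taking nitrogen from glutamine and aspartate, carbon and nitrogen from glycine, and carbon from folate-bound formyl groups and from carbon dioxide. It ends at inosine monophosphate (IMP), from which AMP and GMP are made. In S. cerevisiae most of its genes are known targets of the transcription factors Bas1 and Pho2, whose interaction is promoted by the pathway intermediates SAICAR and AICAR when cells make their own adenine. The array comparison asks how the transcripts of these enzymes differed between both ways of growing the same strain.

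The median gene signal lay between 7.95 and 7.97 (log2) on all 6 arrays, and the deposited values ranged from 4.95 to 13.3. Correlations across genes lay between 0.994 and 0.999 within groups and between 0.815 and 0.853 across groups, and genes are not independent replicates. No detection calls were used. Probe sets for the fission yeast S. pombe on the same arrays served as background, with a 95th percentile between 5.89 and 5.98 on each array. All 10 genes lay above it in both groups, with signals between 8.71 and 11.8. Of the genes that mark mating type, those of a cells ranged from 7.20 to 11.2 and the measured ones of alpha cells, STE3 and SAG1, from 6.49 to 7.20. In chemostat 4 of 5 a-cell genes were lower and 1 did not pass, and both alpha-cell genes were higher, by the call defined below. Of all genes 44.8% were called lower and 33.6% higher. The 4 falls were at least 2-fold, which was called for 4.37% of all genes, and STE2 changed most (-2.13). What part the mating-type genes had in the results below was not tested. The labels do not say whether the arrays of a group came from separate cultures; p-values therefore rest on a spread that may be technical only. In such bulk RNA, fewer cells with a transcript and less of it per cell cannot be told apart. All changes are chemostat minus batch on the log2 scale, with n = 3 arrays per group.

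In chemostat 9 of the 10 genes were lower and 1, ADE16, was higher. The falls lay between -0.88 and -1.48 log2 units, or 1.84-fold to 2.78-fold. The median over all 10 genes was -1.11, against -0.06 over all genes tested. A gene was called where its p-value from limma, adjusted over all genes after Benjamini and Hochberg, was under 0.05. Calls were common, with 78.4% of all genes called in either direction and 44.8% called lower. A fall of at least 2-fold was called for 7 of the 10 purine genes and for 4.37% of all genes. For each of the 9, between 0.826% and 6.61% of all genes had a lower change. Batch and chemostat arrays did not overlap for any of the 10, which was also true of 81.7% of all genes, and the chemostat arrays lay below the batch arrays for 46.4%.

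**Figure D1:**
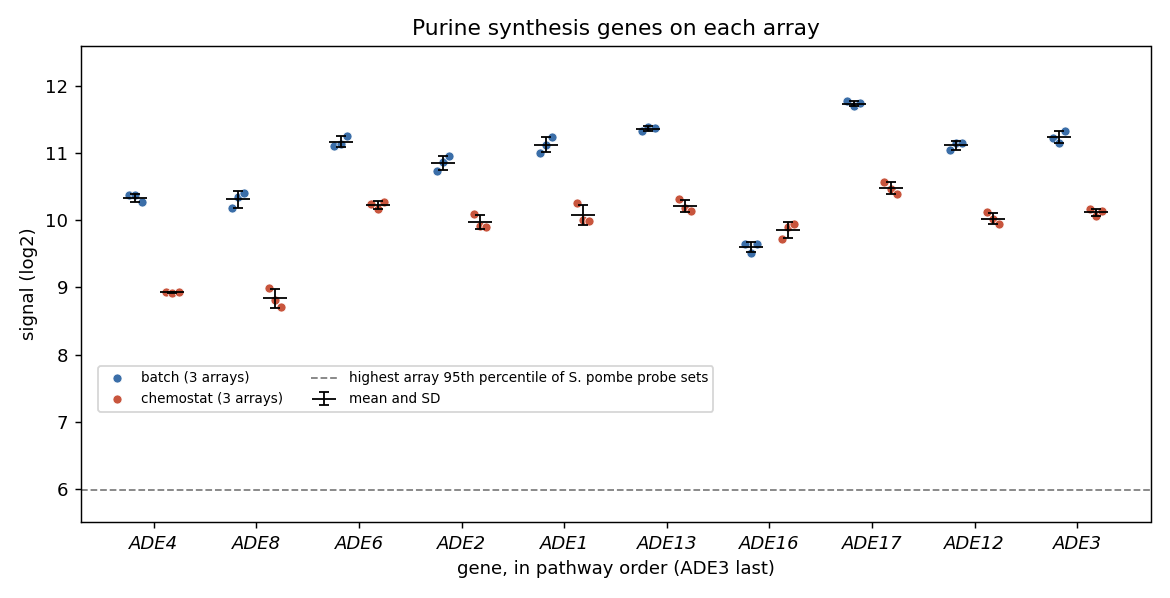
Signals (log2) of the 10 purine synthesis genes on each of the 3 batch and 3 chemostat arrays, with the mean and SD of each group; the dashed line marks the highest array's 95th percentile of S. pombe probe sets (5.98). Every gene but ADE16 is lower on all chemostat arrays; heights of different genes come from different probes and cannot be set against each other.

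ADE4 encodes PRPP amidotransferase, the first committed step of the pathway and the one that purine nucleotides inhibit. Its signal was 10.38, 10.37 and 10.27 in batch replicates 1, 2 and 3. In chemostat replicates 4, 8 and 9 it was 8.93, 8.92 and 8.93. The chemostat arrays agreed closely, and every one lay far below the lowest batch array. ADE4 fell by 1.41 (SE 0.043, limma adjusted p = 4.05e-08), a 2.66-fold difference, and ranked 58 of 5449 genes from the largest fall. Its SD was 0.008 in chemostat, against 0.061 in batch.

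ADE8 encodes glycinamide ribonucleotide transformylase, which adds the first folate-borne formyl group. Batch replicates 1, 2 and 3 gave 10.18, 10.35 and 10.41. Chemostat replicates 4, 8 and 9 gave 8.99, 8.81 and 8.71. Replicates differed more than for ADE4, yet the groups stayed apart by 1.19 log2 units between the nearest arrays. ADE8 fell by 1.48 (SE 0.085, limma adjusted p = 1.10e-06), or 2.78-fold, and at rank 46 it had the largest fall of the 10.

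ADE6 encodes formylglycinamidine ribonucleotide synthetase, which takes nitrogen from glutamine. Its batch signals were 11.11, 11.14 and 11.26 and its chemostat signals 10.24, 10.17 and 10.27. Both groups were tight, and the change was among the smaller ones of the pathway. ADE6 fell by 0.94 (SE 0.053, limma adjusted p = 1.04e-06), or 1.92-fold.

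After the step of aminoimidazole ribonucleotide synthetase, which ADE5,7 encodes, ADE2 and ADE1 encode aminoimidazole ribonucleotide carboxylase and SAICAR synthetase, whose loss lets a red pigment build up in yeast colonies. ADE2 measured 10.74, 10.87 and 10.96 in batch and 10.10, 9.92 and 9.91 in chemostat. It fell by 0.88 (SE 0.071, limma adjusted p = 7.46e-06), the smallest fall of the 9, and its nearest batch and chemostat arrays were 0.65 apart. In both groups ADE2 varied from array to array, with batch replicate 1 lowest and chemostat replicate 4 highest. ADE1 measured 11.01, 11.13 and 11.24 in batch and 10.25, 10.001 and 9.99 in chemostat. It showed the same order of arrays as ADE2 and fell by 1.05 (SE 0.085, limma adjusted p = 7.52e-06), or 2.06-fold.

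ADE13 encodes adenylosuccinate lyase, which acts at 2 points, on SAICAR in the main pathway and on adenylosuccinate on the way to AMP. Batch signals were 11.33, 11.39 and 11.38, and chemostat signals 10.32, 10.18 and 10.15. The batch arrays hardly differed, and the groups lay about 1.01 apart at their nearest. ADE13 fell by 1.15 (SE 0.054, limma adjusted p = 3.78e-07), or 2.22-fold.

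The last steps to IMP were the place where the pathway divided. ADE16 and ADE17 encode isozymes, each carrying both AICAR transformylase and IMP cyclohydrolase. ADE17 measured 11.77, 11.70 and 11.74 in batch and 10.57, 10.46 and 10.40 in chemostat, so that it was far lower on each chemostat array. It fell by 1.26 (SE 0.052, limma adjusted p = 2.02e-07), or 2.40-fold. ADE16 measured 9.65, 9.51 and 9.64 in batch and 9.73, 9.90 and 9.94 in chemostat. Each chemostat array of ADE16 lay above each batch array, but the nearest were only 0.079 apart. ADE16 rose by 0.26 (SE 0.066, 95% interval 0.10 to 0.41, limma adjusted p = 0.00724), or 1.19-fold, and 33.6% of all genes were called higher. The rise did not pass a test against a minimum of 1.5-fold (limma's treat), in which ADE17 and the other 8 genes still passed as lower.

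The isozymes were also compared within each array. On each array the ADE17 signal minus the ADE16 signal was 2.12, 2.19 and 2.10 in batch and 0.85, 0.56 and 0.46 in chemostat. This difference joins 2 probe sets, so its height has no meaning of its own. Its shift between groups is free of probe brightness only if both probe sets respond alike on the log scale, which was not tested. It moved from 2.14 ± 0.047 (SD, n = 3) to 0.62 ± 0.20 (SD, n = 3), a shift of -1.52. The groups did not overlap. The two-sided exact permutation p was 0.1, the smallest that 3 arrays against 3 allow, so this test could not pass 0.05 whatever the values. Among the chemostat arrays, replicate 4 was highest for ADE17 and lowest for ADE16.

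ADE12 encodes adenylosuccinate synthase, which starts the branch from IMP to AMP. Its signals were 11.04, 11.15 and 11.16 in batch and 10.12, 10.01 and 9.95 in chemostat, with no overlap. It fell by 1.09 (SE 0.056, limma adjusted p = 6.49e-07), or 2.13-fold. ADE3 encodes the cytosolic enzyme that interconverts folate-bound carbon units and supplies formyl groups to the pathway. It measured 11.23, 11.16 and 11.33 in batch and 10.16, 10.06 and 10.14 in chemostat. ADE3, although outside the ring-building steps, moved with them and fell by 1.12 (SE 0.054, limma adjusted p = 4.59e-07), or 2.17-fold.

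**Figure D2:**
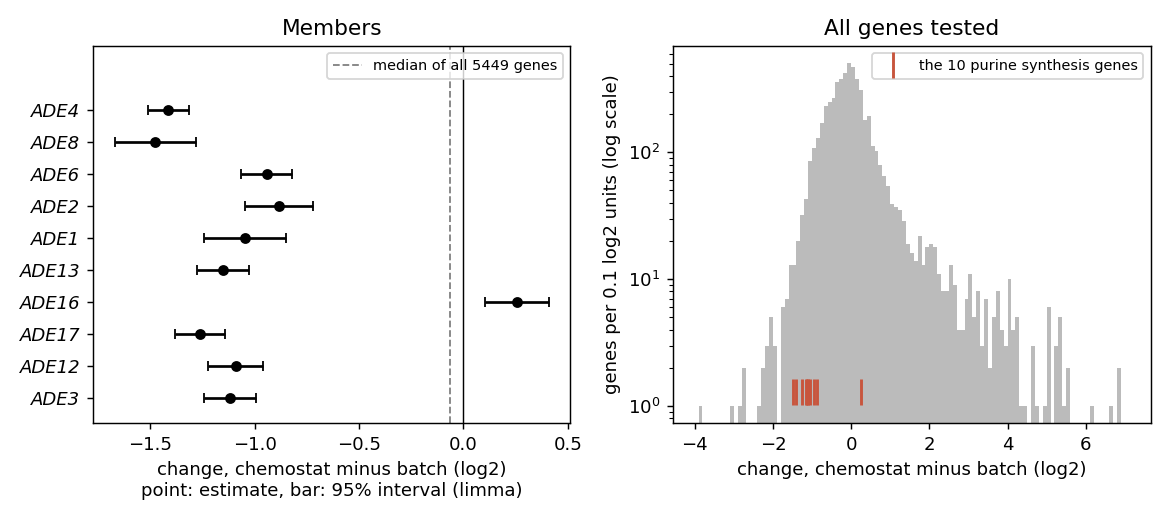
Left, change of each gene (chemostat minus batch, log2) with limma's 95% interval, in pathway order with ADE3 last, the dashed line marking the median of all genes (-0.06). Right, changes of all 5449 genes, counted on a log axis, with the 10 purine synthesis genes as ticks; 9 ticks lie between -1.48 and -0.88 and ADE16 lies at 0.26.

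In order of their fall the genes ran ADE8, ADE4, ADE17, ADE13, ADE3, ADE12, ADE1, ADE6 and ADE2. Each of these had a 95% interval that overlapped the next one's, so the order of neighbours is not settled by these arrays. The ends of the order lay further apart. The intervals of ADE8 (-1.67 to -1.28) and ADE4 (-1.51 to -1.31) overlapped neither that of ADE6 (-1.07 to -0.82) nor that of ADE2 (-1.05 to -0.72). The interval of ADE16 overlapped none of the 9.

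Within a group many of the genes deviated to the same side on some arrays, by small amounts. In chemostat replicate 4 all 9 falling genes lay above their chemostat mean, while ADE16 lay 0.13 below its own. Replicate 4 was the highest chemostat array for 8 of the 10 genes, against 40.0% of all genes. That share pools genes that fell and genes that rose. Falling genes outside the pathway also showed this. HIS1 read 10.57, 10.44 and 10.38 in chemostat replicates 4, 8 and 9, and the a-cell gene STE2 read 9.29, 8.75 and 8.59. Among the genes of histidine synthesis and folate-bound carbon supply, replicate 4 was highest for all but HIS6, HIS7, MIS1 (8.17, 8.16 and 8.23), FOL1 and FOL3. The pattern was therefore not particular to purine synthesis. Its share among all falling genes was not taken. In replicate 8 none of the 9 falling purine genes lay above the mean, and in replicate 9 only 2 did, ADE6 and ADE3. Deviations within a group cancel out, so these low counts follow in part from replicate 4. In batch, replicate 3 was above the mean for 8 of the 9. Replicate 1 was the lowest batch array for 6 of the 10 genes, not far from the 42.2% of all genes. It was the highest for 3, among them ADE4 and ADE17. The shares of all genes above their group mean were not taken. These deviations were small beside the change between groups. The median deviation of the 10 genes on an array reached 0.093 (chemostat replicate 4), and the largest single one was 0.17, for ADE1 on that array. The median SD within groups was 0.074 over the 10 genes and 0.061 over all genes.

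**Figure D3:**
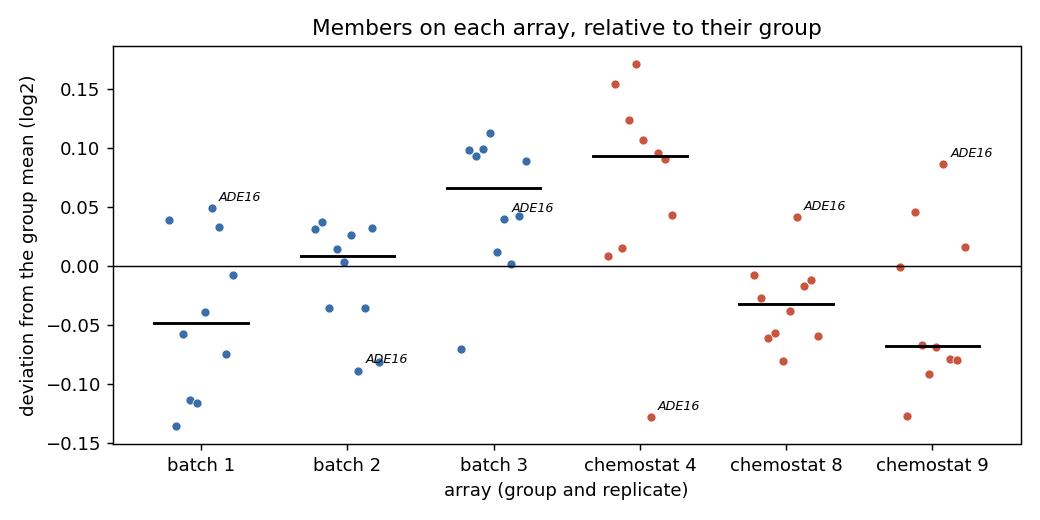
Deviation of each of the 10 genes from the mean of its group on each array (log2), with the median as a bar and ADE16 named. On chemostat replicate 4 the median is 0.093 and ADE16 is the only gene below 0.

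The genes that feed and drain the pathway were read from lists made for this purpose with earlier results of these data known. All p-values are from the same limma fit over all genes, and 44.8% of all genes were lower and 33.6% higher. All 5 measured genes from IMP to GMP were lower (median -0.90). IMD4, an isozyme of IMP dehydrogenase, fell by 2.10 (SE 0.048, limma adjusted p = 9.24e-09), from 9.71 ± 0.071 to 7.61 ± 0.040 (SD, n = 3), more than any of the 10 purine synthesis genes. GUA1, GMP synthase, fell by 1.24 (SE 0.048). IMD2, which fell by 0.90, has a probe set marked as sharing probes with related transcripts, and the IMD genes are close paralogues.

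Transcripts of precursor supply were read from 3 lists. Of the 5 PRPP synthetase genes 4 were lower and none higher (median -0.51). PRS3 fell by 0.78 and PRS4 fell by 0.77, whereas PRS2, named after its value was seen, changed by -0.03 (limma adjusted p = 0.608). All 12 genes of folate-bound carbon supply were lower (median -0.65). MIS1, the mitochondrial counterpart of ADE3, fell by 1.31 (SE 0.040, limma adjusted p = 4.15e-08), from 9.50 ± 0.029 to 8.19 ± 0.040 (SD, n = 3). MTD1, a cytosolic methylene-tetrahydrofolate dehydrogenase, fell by 1.23 (SE 0.064). Among 4 genes for glutamine, aspartate and glycine supply, 3 were lower and 1 higher. GLY1, threonine aldolase, which makes glycine, rose by 0.55 (SE 0.061), and AAT1, the mitochondrial aspartate aminotransferase, fell by 0.52 (SE 0.056).

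Histidine synthesis releases AICAR, which Ade16 and Ade17 return to IMP, and all 7 of its genes were lower (median -0.80). HIS1, the first enzyme of that pathway, fell by 1.14 (SE 0.065). HIS7, whose product releases AICAR, fell by 0.85 (SE 0.048). A list of 8 known Bas1 targets outside purine synthesis, which shares its members with the histidine and folate lists, had all 8 lower with a median of -0.75; MTD1 and HIS1 led it.

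Salvage and interconversion of purines was mixed. Of 17 genes 11 were lower and 4 higher, and the median was -0.45. AAH1, adenine deaminase, fell by 0.93 (SE 0.065, limma adjusted p = 3.24e-06). GUD1, guanine deaminase, lay below background in batch (5.82 ± 0.028, SD, n = 3) and reached 6.69 ± 0.047 in chemostat, at least 1.65-fold higher (limma adjusted p = 4.23e-07). For this bound the chemostat mean was set against batch arrays raised to their S. pombe percentile where the gene lay below it. The 3 other higher genes, named after their values were seen, were APT2 (0.63), ADK2 (0.31) and ISN1 (0.20). APT2 and ADK2 have paralogues in the list that went the other way. APT1, adenine phosphoribosyltransferase, fell by 0.52 and ADK1, cytosolic adenylate kinase, fell by 0.76, while ADK2 encodes the mitochondrial form. These differences within pairs were not tested. AMD1, AMP deaminase, and FCY22, related to the purine permease FCY2, did not pass (-0.10 and -0.07). FCY22 passed as lower after quantile normalization (-0.21, limma adjusted p = 0.002335), and AMD1 without batch replicate 2 (-0.14, limma adjusted p = 0.0262). Calls were also lost among the 11 lower genes. XPT1 (-0.16, limma adjusted p = 0.0373), whose groups overlapped, and FCY21 (-0.19, limma adjusted p = 0.0223) failed in several alternatives, including the threshold of 0.01. In chemostat FCY21 (mean 5.94) lay close to background (5.89). Both were named after their values were seen.

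Of the 3 transcription factors read beside them, 1 was lower, 1 was higher and 1 did not pass. BAS1 measured 7.87 ± 0.031 in batch and 7.71 ± 0.061 in chemostat (SD, n = 3) and fell by 0.17 (SE 0.045, limma adjusted p = 0.00894). PHO2 measured 7.21 ± 0.045 and 7.31 ± 0.045 (SD, n = 3), a change of 0.11 that did not pass (limma adjusted p = 0.0520). It passed as higher after centring on the S. pombe median (0.13, limma adjusted p = 0.0242), with all probe sets tested (0.11, limma adjusted p = 0.0412), without batch replicate 1 (0.13, limma adjusted p = 0.0341), without chemostat replicate 4 (0.13, limma adjusted p = 0.0435) and without both (0.15, limma adjusted p = 0.0200). GCN4, the activator of amino acid synthesis that also acts on purine genes, rose by 0.70 (SE 0.039, limma adjusted p = 9.77e-07), from 11.67 ± 0.039 to 12.37 ± 0.018 (SD, n = 3). Its protein is known to be set mainly by translation of the transcript, which the arrays do not measure.

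**Figure D4:**
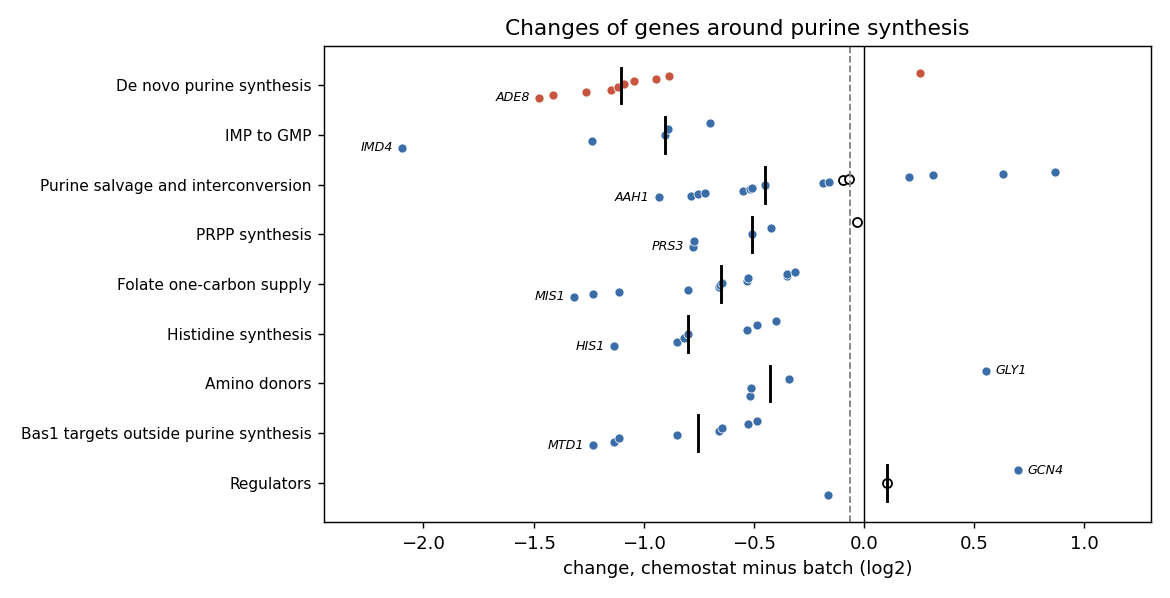
Changes (chemostat minus batch, log2) of the 10 purine synthesis genes and of the genes in 8 related lists. Filled points passed the limma test and open points did not, bars mark each list's median, the dashed line marks the median of all genes (-0.06), and the gene with the largest change in each list is named.

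The genes whose profile over the 6 arrays was most like the median of the 10 were TEF4, a subunit of translation elongation factor eEF1B, VMA7, a subunit of the vacuolar proton ATPase, CYS3, cystathionine gamma-lyase, SHE3, an adaptor of mRNA transport, and HIS1. Likeness was the root mean square difference between profiles centred on their own mean, and it lay between 0.030 for TEF4 and 0.034 for HIS1. Within the pathway ADE13 (0.028) and ADE12 (0.029) lay nearest to that median, ADE8 (0.19) and ADE4 (0.17) were further off, and ADE16 (0.70) was furthest. The median is made from these 10 genes, so their closeness is partly built in and cannot be set against that of other genes. TEF4 fell by 1.14 and SHE3 fell by 1.17. When the mean of the 10 replaced the median, 0 of these 5 genes were among the nearest, so the choice of neighbours depends on how the 10 are summarised.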

How the data were processed

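The authors deposited log2 signals, 1 per probe set and array, and the submitters' processing notes name PLIER as the tool that made them. Which version and settings of PLIER were used, and whether arrays were normalized to each other, is not given in the sources used for this text. The base of the logarithm was taken as 2 from the range of the values, which were used as deposited. With arrays there is no read depth, and precision is limited by their number. Among the 10928 probe sets, 5498 could be tied to a single S. cerevisiae gene, matched by Entrez identifier to a RefSeq gene table (assembly R64) used only for names. Where a gene had several probe sets the brightest stood for it. S. pombe probe sets were the 1746 with a lower-case symbol outside that table.

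Chemostat was compared with batch by limma 3.58.1 in R 4.3.3 (lmFit and eBayes, two-sided, no covariates), with Benjamini-Hochberg adjustment over 5449 genes; errors are limma's standard errors or SDs over 3 arrays. The fit was tested on simulated data with shifts in a small part of the genes and independent noise. That test does not cover data with as many called genes, or with deviations shared among genes, as seen here. Members and lists were chosen with earlier results of these data known. Named were the members, the regulators, per list the 2 passing genes that changed most and the one that changed most the opposite way, and the 5 genes of most similar profile. Alternatives comprised quantile normalization, centring on the gene or S. pombe median, removal of dim genes, averaging of a gene's probe sets, a trended and robust variance, limma's treat at 1.5-fold, a threshold of 0.01, all probe sets tested and each array left out.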

Additional observations from a re-analysis of the deposited data

How the results depend on the processing

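The 9 falls in purine synthesis kept their direction and call under all 16 alternatives, and ADE16 stayed higher and called under 15. The exception was limma's treat at 1.5-fold, with 0 of the 10 genes higher (ADE16 at 0.26, adjusted p = 1); 601 of all genes were higher there and 564 lower, against 1829 and 2442. With 1 array left out the adjusted p of ADE16 lay between 0.00114 and 0.0300. Treat also left 2 lower and 1 higher in salvage, 2 lower in PRPP synthesis, 4 in folate supply, 4 in histidine synthesis, 4 among the Bas1 targets, 0 lower or higher among amino donors, and 0 lower among regulators; the cause is the minimum size it asks for. Regulators had 2 higher where PHO2 passed. The shift between the isozymes (-1.52) lay between -1.64 and -1.44 over its 11 alternatives, and between -1.63 and -1.44 with 1 array left out. Among the 11, both centrings and the averaging of probe sets could not move it. Centring shifts both genes of an array alike, and each gene has 1 probe set. Leaving out batch replicate 1 and chemostat replicate 4 together was chosen after seeing the data. With the mean profile, 0 of the 5 similar genes were shared. Over the 62 other named genes, 943 of 992 comparisons kept their call, 42 lost one, 7 gained one and 0 called changes reversed. No paired analysis was possible because the groups share no replicate numbers. Promoter motifs and protein identity, listed among the comparisons, were not run, as no sequences were used here.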

Other observations

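The arrays also carry 7 probe sets for S. pombe genes with ade names, whose RNA these cultures should lack. Numbers in S. pombe ade names do not follow those of S. cerevisiae. Of the 7, 4 lay below the 95th percentile of S. pombe probe sets and 3 lay above it on all 6 arrays. S. pombe ade1 stood at 7.92 ± 0.031 in batch and 7.84 ± 0.013 in chemostat, S. pombe ade3 at 6.60 ± 0.004 and 6.49 ± 0.038, and S. pombe ade6 at 6.44 ± 0.012 and 6.43 ± 0.017 (log2, SD, n = 3). The largest difference between groups among the 7 was 0.103 in size, for S. pombe ade3.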
